A study of Rattus norvegicus with 18 samples.

Results

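Chronic restraint stress was compared with no intervention in the rat hypothalamus, as the 6 stress arrays minus the 6 control arrays. Groups were taken from the sample titles, and the comparison uses 12 of the 18 arrays in the series. Every animal was a male Wistar rat, 5 weeks old when the groups were formed and 9 weeks old at tissue collection, and each array holds the hypothalamic RNA of 1 rat. The stress group underwent 3 weeks of restraint, with sessions of 1 to 1.5 h on 5 days of each week, and had no running wheel. Control rats had neither restraint nor a wheel. The remaining 6 rats were restrained and also had a running wheel, and they enter only the alternatives that fit all 18 arrays. All rats ate and drank freely, were killed by ether and decapitation, and were dissected by a single operator. No transgene, drug or surgery is named for any group.

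The hypothalamus starts the hormonal answer to stress. Neurons of the paraventricular nucleus release corticotropin-releasing hormone (Crh) and vasopressin (Avp) towards the pituitary, which drives adrenal corticosterone, and corticosterone feeds back on the brain through the glucocorticoid receptor (Nr3c1). The same region sets appetite, body temperature, water balance and the sympathetic tone that acts on blood pressure.

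Levels below are log2 signals relative to each array's own 75th percentile, so 0 is that percentile, and a difference of 1 is a 2-fold difference. A level is read within 1 probe and is not set against the level of another probe. Only probes that stood well above background on 5 or 6 arrays of a group entered the test. That left 30932 probes, of which 16541 could be named for 12948 genes, and each gene is given by its brightest probe. On the 12 arrays 63.6% to 77.8% of probes stood above background, the 75th percentile lay between 1966 and 2422 intensity units, and no spot was saturated. Known hypothalamic transcripts were well above background on all 12 arrays, among them Avp, Pomc and the regional transcription factor Nkx2-1. Since whole tissue was used, fewer cells of a type and less RNA per cell cannot be told apart.

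Stress rats 5 and 6 stood apart from the other 10 rats. On the first principal component of the tested probes, which held 31.5% of the variance, they scored 61.2 and 50.9, while the others lay between -26.4 and 3.17. These 2 arrays were on slide 4 together with arrays of wheel-running rats, stress rats 1 to 4 filled slide 3, and the controls were on slides 1 and 2. No slide held both groups, so slide and treatment cannot be told apart. Between stress rats 5 and 6 and stress rats 1 to 4, 3144 probes passed an adjusted p of 0.05 in limma, 403 of them higher and 2741 lower in rats 5 and 6. For this reason the main results are also given for stress rats 1 to 4 against the same 6 controls. The 2 comparisons share their control rats and stress rats 1 to 4, so they are not independent.

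Across the tissue, restraint left no probe past the threshold. With limma and Benjamini-Hochberg adjustment over all 30932 probes, 0 probes had an adjusted p under 0.05 with 6 stress rats, and 0 with stress rats 1 to 4 (0% of those tested in both). The lowest adjusted p was 0.0817 for 6 stress rats and 0.19 for rats 1 to 4. Before adjustment, 1031 probes (3.33%) were higher and 1972 (6.38%) lower in stress at p under 0.05. That split depended on the scaling, and the higher share of these probes was 34.3% here, 62.3% after quantile normalization and 52.9% after scaling to the median. In 109 probes (0.352%) every stress rat lay above every control rat, and in 139 (0.449%) every stress rat lay below. These counts were 186 and 73 after quantile normalization, and 138 and 74 after scaling to the median, so their balance turned with the scaling. Among the 12948 named genes, 621 (4.80%) were higher and 575 (4.44%) lower at an unadjusted p under 0.05. List counts below are to be read against these shares. The groups were apart in 71 named genes upwards, by a median of 0.14 and at most 0.74, and in 54 downwards, by a median of -0.21. Only 10 of these genes differed by 0.5 or more. The median standard error of a probe's difference was 0.084.

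Scan day crossed the groups. Control rats 3 to 6 and stress rats 5 and 6 were scanned on day 1, and control rats 1 and 2 and stress rats 1 to 4 on day 2. With scan day as a block in limma, 375 probes passed, 39 higher and 336 lower. Stress rats 1 to 4 shared a day with control rats 1 and 2 alone. With the block, the difference of stress rats 1 to 4 rests on those controls. Without it, treatment and day are partly mixed in that comparison. Within day 1, 3318 probes passed, 542 higher and 2776 lower, but the only stress rats there are the 2 that stand apart. Within day 2, 0 probes passed, at 3746 with an unadjusted p under 0.05. With slide as a random block the lowest adjusted p was 0.90. The values below are therefore descriptions of direction and size, and no gene named is called changed without its setting. Of the 73 genes followed through all settings, 3 had opposite signs on the 2 days, and in 39 others the larger within-day value was over 1.5 times the smaller. Many of these genes were chosen for a small p or for groups that do not overlap in these same arrays. That choice favours 1 sign on both days, so the count of signs is no check on them.

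Of the 20 function lists, the one of cholinergic genes had the median difference farthest from 0, at 0.36. Lhx8, a LIM-homeodomain factor that forebrain cholinergic neurons need to form, had control levels from -1.22 to -1.04 with a median of -1.12. Its stress levels ran from -0.96 to -0.26 with a median of -0.54. The groups did not overlap, and stress rat 2 was the lowest of the stressed animals. The difference was 0.58 ± 0.10 (SE, n = 6 and 6), a fold of 1.50, with an adjusted p of 0.208, and it was 0.50 in stress rats 1 to 4. It passed with scan day as a block (limma adjusted p = 0.0313), and measured 0.72 within day 1 and 0.54 within day 2. With stress rats 1 to 4 and the same block, 9 probes passed, all of them lower. Within day 2 Lhx8 did not pass (limma adjusted p = 0.34). Without stress rat 2 and with no block, the Lhx8 difference was 0.67 and passed (limma adjusted p = 0.0174).

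Choline acetyltransferase (Chat), which makes acetylcholine, had control levels from -2.69 to -2.02 with a median of -2.62. In stress rats Chat lay between -2.34 and -1.41 with a median of -1.73. Control rat 6 and stress rat 2 overlapped, and the other 5 stress rats were above every control. The difference was 0.74 ± 0.15, with an adjusted p of 0.315 and 0.71 in stress rats 1 to 4. Ngfr, the low-affinity neurotrophin receptor, had control levels from -3.68 to -3.00 with a median of -3.32, and stress levels from -3.13 to -2.33 with a median of -2.57. Stress rat 2 fell inside the control range and the other 5 stress rats did not. Its difference was 0.73 ± 0.15 (adjusted p = 0.315), and 0.68 in stress rats 1 to 4.

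The transporters that load and recycle the transmitter shared this direction. Slc5a7, which takes choline back into the terminal, had a median of -3.52 in controls and -2.90 in stress rats, a difference of 0.55 ± 0.13 (adjusted p = 0.351). Stress rat 2, at -3.49, lay within the controls, whose levels ran from -3.77 to -3.19. Slc18a3, the vesicular acetylcholine transporter, differed by 0.36 ± 0.12, and the vesicle protein Slc10a4 by 0.40 ± 0.13, with 0.55 within day 1 and 0.11 within day 2. Acetylcholinesterase (Ache), which breaks acetylcholine down, differed by 0.14 ± 0.05, and the homeobox gene Gbx1 by 0.36 ± 0.16, with 0.67 and 0.03 within the 2 days. Of the 16 cholinergic genes listed, 15 were tested, 13 had a mean above the controls, 9 had an unadjusted p under 0.05 on the higher side and 0 on the lower side. Of all 12948 named genes, 6643 had a mean above the controls, and 621 (4.80%) were higher and 575 (4.44%) lower at that p. The median difference of the list was 0.36, and 0.26 in stress rats 1 to 4, against 0.0036 and -0.0065 over all 12948 genes. The receptors on the list, Chrm2, Chrm3, Chrna4, Chrna7 and Chrnb2, had differences between -0.24 and 0.16, and none had an unadjusted p under 0.05. Chat, Slc5a7, Slc18a3, Slc10a4, Ache and Gbx1 are named here after their values had been seen.

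**Figure D1:**
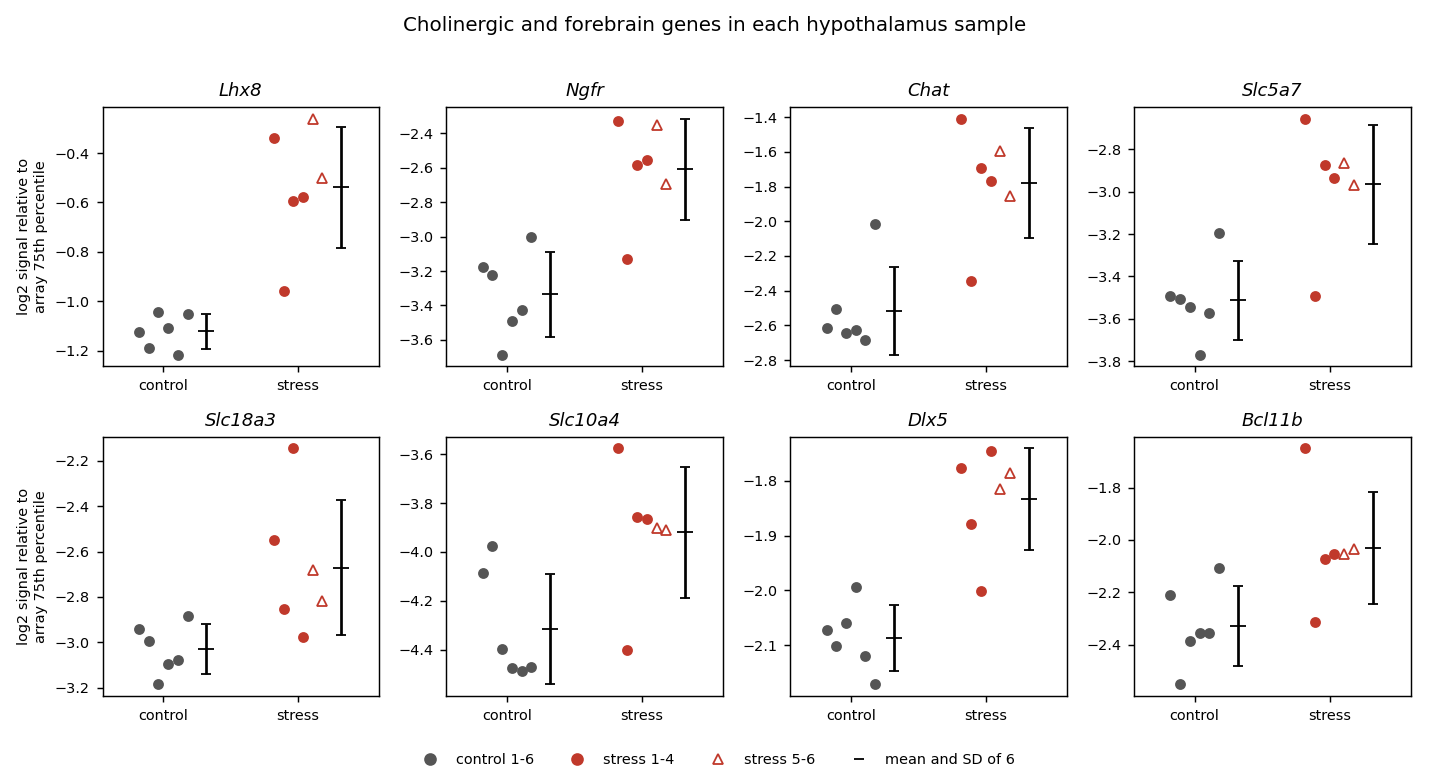
Level of 8 cholinergic and forebrain genes in each rat, as log2 signal relative to the array's 75th percentile. Points are single rats (grey controls, red circles stress 1 to 4, open triangles stress 5 and 6), and bars are the mean and SD of 6. In Lhx8 the groups do not overlap, and in Ngfr, Chat and Slc5a7 stress rat 2 lies among the controls.

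Genes that mark the telencephalon, in front of the hypothalamus, were examined beside them. Dlx5, a homeobox gene of forebrain GABA neurons, differed by 0.25 ± 0.05, and only stress rat 3 fell inside the control range of -2.17 to -1.99. Of all 12948 named genes 6643 had a mean above the controls, and 4.80% were higher at an unadjusted p under 0.05. Of 13 tested striatal markers 10 had a mean above the controls, with a median difference of 0.12 and 4 at an unadjusted p under 0.05, all higher. Those 4 were Bcl11b (0.30), Rgs9 (0.20), the dopamine-regulated phosphatase inhibitor Ppp1r1b (0.22) and the adenosine receptor Adora2a (0.33). The mean level of the striatal list ran from -1.03 to -0.89 in controls and from -1.01 to -0.63 in stress rats, with stress rat 2 the lowest and stress rat 1 the highest.

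Thalamic markers lay on the other side. Of 12 tested, 1 had a mean above the controls. The median difference was -0.35 with all 6 stress rats and with rats 1 to 4, and -0.20 in rats 5 and 6. Grid2ip, a synaptic scaffold protein, differed by -0.75 ± 0.24 and was the only one with an unadjusted p under 0.05. The mean of the thalamic list ran from -2.30 to -1.25 in controls and from -2.57 to -1.65 in stress rats. Stress rats 2 and 4 and control rat 5 were the 3 lowest, so the ranges overlapped widely. Cortical and hippocampal markers had a median difference of -0.03 over 11 genes, and 1 was higher and 1 lower at an unadjusted p under 0.05. The lower one was Neurod1, a factor of excitatory neuron formation, at -0.53 ± 0.13, and the higher one Lamp5, at 0.31 ± 0.11. The 23 hypothalamic neuron markers had a median of 0.02, and Nkx2-1 differed by 0.12 ± 0.05. Of these 23, 4 were higher and 0 lower at an unadjusted p under 0.05, against 4.80% and 4.44% of all named genes. Lhx8 and Oxt, both on this list, were the 2 whose groups did not overlap. All the defining markers named here were above background in both groups. The part of these neighbouring regions in the cholinergic result was not tested.

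**Figure D2:**
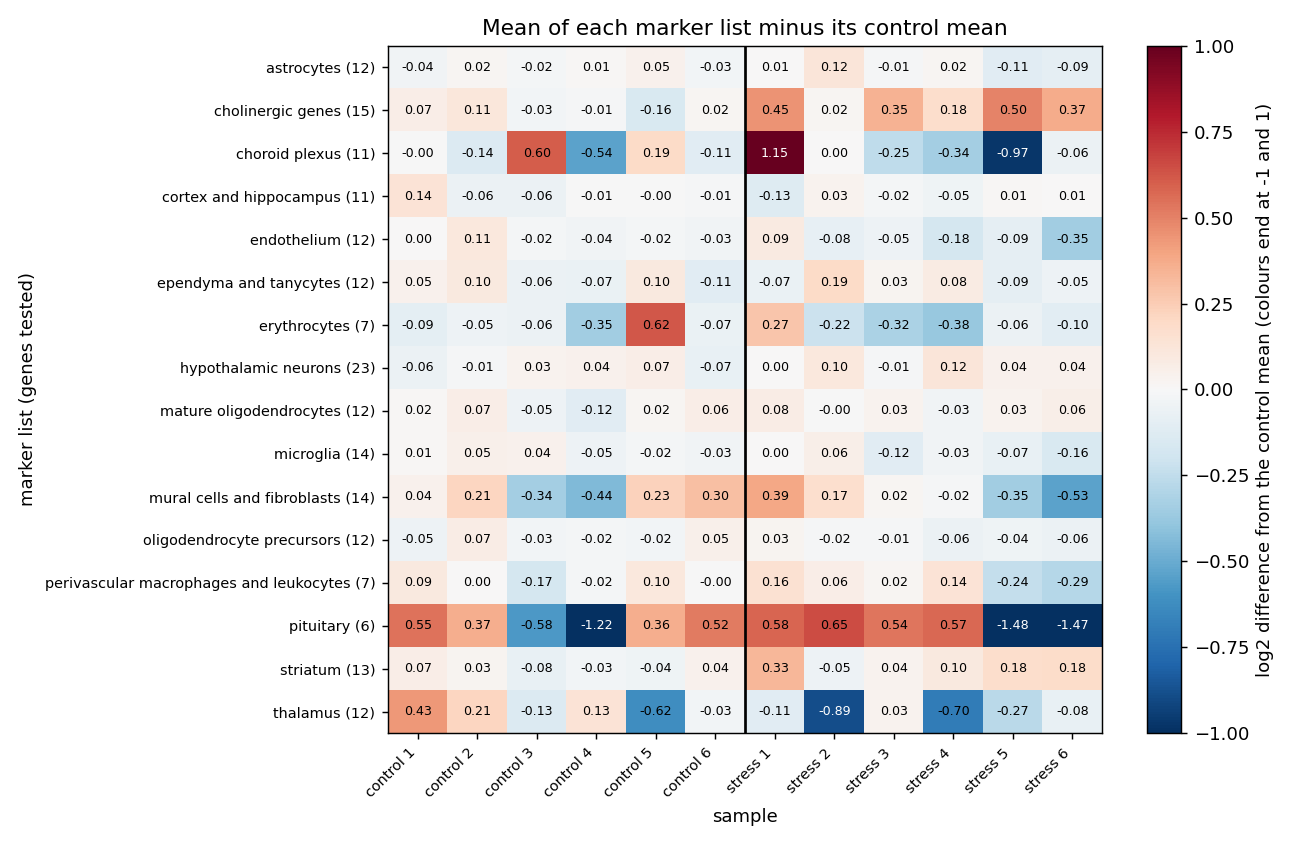
Mean level of each marker list in each of the 12 rats minus the mean of the 6 controls, in log2 units, with the number of genes tested in brackets. The cholinergic genes are above 0 in all 6 stress rats, while the choroid plexus, pituitary and thalamic lists vary between rats of 1 group.

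Upwards, 71 of all 12948 named genes had groups that did not overlap, and among the 23 tested stress axis genes 1 did. That gene was oxytocin (Oxt), a hormone made by magnocellular neurons and released in birth, lactation and stress, with control levels from 2.90 to 3.05 and a median of 3.02. In stress rats Oxt lay between 3.08 and 3.72 with a median of 3.34. Stress rat 2 was highest, and the SD was 0.056 in controls and 0.22 in stress rats. The difference was 0.35 ± 0.09, a fold of 1.28, with an adjusted p of 0.372. It was 0.36 in stress rats 1 to 4, 0.32 within day 1 and 0.39 within day 2.

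Avp, the neighbour of Oxt on chromosome 3 and expressed in sister cells of the same nuclei, had control levels from 4.63 to 5.08 and stress levels from 4.55 to 5.01. The ranges coincided, and the difference was 0.11 ± 0.10 (adjusted p = 0.683). The upstream sequences of the 2 genes are shown because the pair shares a locus and a cell class. They are the 250 bases before the RefSeq start of each gene (GRCr8), at chr3:138235504-138235753 on the plus strand for Oxt and chr3:138248523-138248772 on the minus strand for Avp. Capitals mark the hexamer AGGTCA, a half-site of nuclear hormone receptors, or its reverse complement TGACCT.
Oxt: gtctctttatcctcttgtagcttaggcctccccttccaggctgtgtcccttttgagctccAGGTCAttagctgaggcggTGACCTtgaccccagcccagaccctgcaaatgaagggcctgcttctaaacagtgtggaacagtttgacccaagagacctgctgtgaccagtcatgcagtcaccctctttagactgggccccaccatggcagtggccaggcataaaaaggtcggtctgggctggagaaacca
Avp: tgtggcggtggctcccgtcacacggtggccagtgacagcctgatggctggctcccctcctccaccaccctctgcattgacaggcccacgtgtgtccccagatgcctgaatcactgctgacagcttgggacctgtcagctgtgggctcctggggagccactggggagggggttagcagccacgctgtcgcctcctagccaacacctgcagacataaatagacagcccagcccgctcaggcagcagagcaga
The Oxt window holds 2 matches, 1 on each strand and not overlapping, and the Avp window holds 0. Of all 33469 windows of this length in the table, 14.1% hold the hexamer on either strand. Of the 59 genes of the text with a window, 6 have it. A link between the hexamer and the difference between groups was not tested.

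Crh itself had control levels from -1.50 to -1.15 with a median of -1.37, and stress levels from -1.20 to -0.79 with a median of -1.09. All 6 stress rats were above the control mean, rats 2 and 4 were highest, and the ranges overlapped by a small margin. The difference was 0.31 ± 0.09, a fold of 1.24, with an adjusted p of 0.419, and it was 0.35 in stress rats 1 to 4. Within scan days it was 0.16 on day 1 and 0.50 on day 2. Pdyn, the precursor of dynorphin, differed by 0.16 ± 0.06, and Adcyap1r1, the receptor for the peptide PACAP, by 0.14 ± 0.05. Of 23 tested stress axis genes 4 (Oxt, Crh, Pdyn and Adcyap1r1) had an unadjusted p under 0.05 on the higher side, where 4.80% of all named genes did, and 0 on the lower side. The median of the list was 0.04.

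The arcuate feeding peptides gave smaller differences. Pomc, the precursor of melanocortins, had levels from 0.78 to 1.20 in controls and from 0.87 to 1.61 in stress rats, a difference of 0.19 ± 0.11. Npy, which promotes eating, differed by 0.19 ± 0.09, and its companion Agrp by 0.15 ± 0.15. In all 3 genes stress rat 2 was the highest rat of the comparison, and the ranges overlapped. The Npy difference was 0.02 within day 1 and 0.39 within day 2, and that of Agrp was -0.04 and 0.38.

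**Figure D3:**
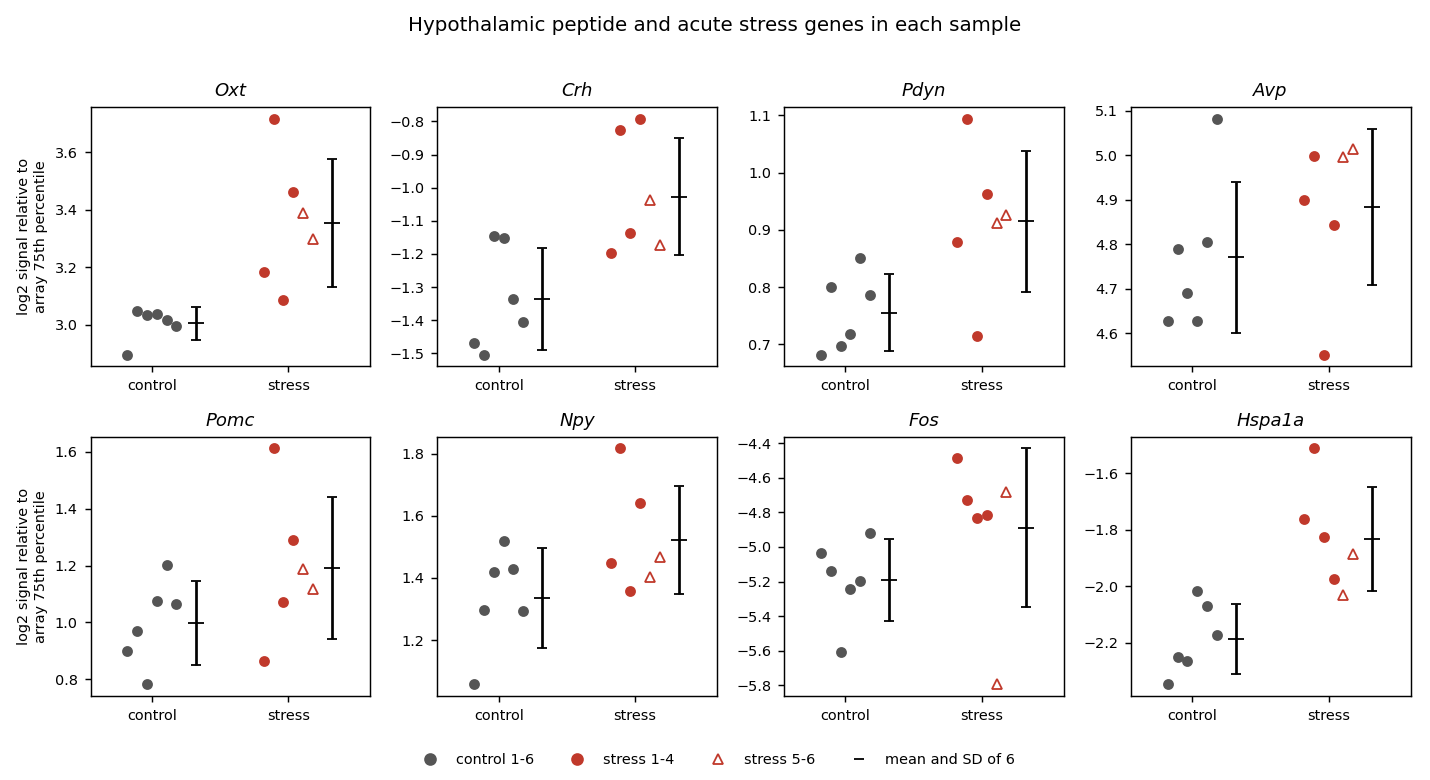
Level of 8 hypothalamic peptide and acute stress genes in each rat, as log2 signal relative to the array's 75th percentile, with symbols as in the plot of cholinergic genes. The groups are apart in Oxt, overlap slightly in Crh and Hspa1a, and overlap widely in Avp and Pomc.

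Receptors for feeding peptides lay on both sides of the controls. Galr3, a galanin receptor, had control levels from -4.87 to -4.49 and stress levels from -5.26 to -4.87. The groups were apart by less than 0.01, and the difference was -0.29 ± 0.08 (adjusted p = 0.414), with -0.23 in stress rats 1 to 4. Npy1r, a receptor for Npy, differed by -0.30 ± 0.09, while Npy2r, a receptor that restrains Npy release, differed by 0.20 ± 0.08. Of 24 feeding genes 2 had an unadjusted p under 0.05 on the higher side and 3 on the lower side, with a median of 0.04. At that p 4.80% of all named genes were higher and 4.44% lower. Qrfp, a peptide of the lateral hypothalamus, differed by 0.51 ± 0.19, with control rat 3, at -6.33, below the other controls. Ghrh, which releases growth hormone, differed by 0.28 ± 0.14. Of the 17 releasing hormone and lateral hypothalamic genes 14 had a mean above the controls, with a median of 0.09, and 1 had an unadjusted p under 0.05. Of all 12948 named genes 6643 had a mean above the controls.

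Corticosteroid feedback genes were examined next. The brightest probe of the glucocorticoid receptor Nr3c1 differed by -0.05 ± 0.04, with levels from -0.80 to -0.68 in controls and from -0.88 to -0.68 in stress rats. Its 2 other tested probes disagreed, at -0.30 ± 0.08 (limma adjusted p = 0.392) and 0.02 ± 0.12. Its induced targets Fkbp5, a chaperone that dampens the receptor, and Sgk1, a kinase, differed by 0.03 ± 0.07 and 0.03 ± 0.12. In Fkbp5 stress rats 1 to 4 averaged 0.12 above the controls and rats 5 and 6 averaged -0.16, with adjusted p = 0.598 for rats 1 to 4. Hsd11b1, the enzyme that regenerates active corticosterone inside cells, differed by -0.18 ± 0.06. Per1, a clock gene that glucocorticoids induce, had control levels from -0.91 to -0.47 and stress levels from -0.52 to -0.35. The difference was 0.24 ± 0.07 (adjusted p = 0.418), and all 6 stress rats were above the control mean. A second tested probe of Per1 had the opposite sign. Of 20 tested genes of the list 1 was higher and 1 lower at an unadjusted p under 0.05, and the median was -0.02. Over all named genes these shares were 4.80% and 4.44%.

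Of 15 tested clock genes 7 had a mean above the controls, and the median was -0.0043. At an unadjusted p under 0.05, Per1 and Dbp, a rhythmic output factor of the clock at 0.19 ± 0.05, were higher. Npas2, an activator of the clock, was lower at -0.30 ± 0.13, as was its repressor Cry2 at -0.11 ± 0.05. Over all named genes 4.80% were higher and 4.44% lower at that p. Time of day at collection is not stated in the labels.

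Immediate early genes, which neurons switch on within minutes of activity, were compared next. Fos had control levels from -5.61 to -4.92, and stress levels from -5.79 to -4.49. Stress rat 5 was the lowest of all 12, and the other 5 stress rats were above every control. The difference was 0.30 ± 0.20 with 6 stress rats and 0.47 in stress rats 1 to 4 (adjusted p = 0.342). The orphan nuclear receptors Nr4a1 and Nr4a3 differed by 0.27 ± 0.11 and 0.32 ± 0.11. They were the 2 of 19 tested with an unadjusted p under 0.05, and the median of the list was 0.08. Both were higher, as were 4.80% of all named genes at that p. Egr1, another gene of this class, differed by -0.12 ± 0.08.

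Protein-folding genes had single higher members in a list with a median of 0.02. Hspa1a, the inducible heat shock protein of the HSP70 family, had control levels from -2.35 to -2.02 with a median of -2.21. Stress levels of Hspa1a ran from -2.03 to -1.51 with a median of -1.86, so only the lowest stress rat touched the control range. The difference was 0.35 ± 0.09 (adjusted p = 0.359), and 0.42 in stress rats 1 to 4. Herpud1, a factor of endoplasmic reticulum quality control, differed by 0.11 ± 0.04 with groups that did not overlap, and Creld2 by 0.16 ± 0.06. Calr, a calcium-binding chaperone of the same compartment, differed by -0.20 ± 0.06. Hmox1, the inducible heme oxygenase of the antioxidant list, had control levels from -3.69 to -3.51 and stress levels from -3.49 to -3.24. It was the only one of 19 antioxidant genes whose groups did not overlap, with a difference of 0.16 ± 0.05 and a list median of 0.03. Upwards, 71 of all 12948 named genes had groups that did not overlap.

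Blood pressure regulators were examined because the series is about stress and hypertension. Mas1, the receptor for angiotensin 1-7, had control levels from -5.995 to -5.75 and stress levels from -6.77 to -6.02. The groups did not overlap, and stress rat 2 was the lowest. The difference was -0.38 ± 0.11 (adjusted p = 0.419), with -0.43 in stress rats 1 to 4. Agtr1a, the main angiotensin II receptor of the hypothalamus, differed by 0.18 ± 0.07. Agtr1b, its close paralogue, differed by -0.77 ± 0.32, but by -0.38 in stress rats 1 to 4 and -1.56 in rats 5 and 6. Of 23 tested genes of this list 2 were higher and 2 lower at an unadjusted p under 0.05, and the median was 0.01. Over all named genes these shares were 4.80% and 4.44%.

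In fast transmission, kainate receptor genes lay on both sides. Neto1, an auxiliary subunit of kainate receptors, had control levels from -1.82 to -1.68 and stress levels from -1.61 to -1.55. The groups did not overlap, and the difference was 0.18 ± 0.04 (adjusted p = 0.315). Grik1, a kainate receptor subunit, had control levels from -2.19 to -1.87 and stress levels from -2.37 to -2.26, also without overlap, and a difference of -0.24 ± 0.05. The second auxiliary subunit, Neto2, differed by -0.16 ± 0.05, and all 6 stress rats were below the control mean. In stress rats 1 to 4 the 3 values were 0.18, -0.23 and -0.21. Of the 30 tested glutamate receptor genes 1 was higher and 2 lower at an unadjusted p under 0.05, and the median was -0.02. Over all named genes these shares were 4.80% and 4.44%.

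Genes of GABA transmission were examined as a list. Gad1 and Gad2, the 2 enzymes that make GABA, differed by 0.15 ± 0.05 and 0.19 ± 0.08, and the vesicular GABA transporter Slc32a1 by 0.18 ± 0.08. In stress rats 1 to 4 the values were 0.13, 0.10 and 0.13. Of 23 tested genes of the list 9 had a mean above the controls, and the median was -0.02. Gad1, Gad2 and Slc32a1 had an unadjusted p under 0.05 on the higher side, where 4.80% of all named genes lay. Gabbr1, a subunit of the GABA-B receptor, had one on the lower side, where 4.44% lay. It differed by -0.13 ± 0.06, with -0.05 in stress rats 1 to 4. Cacna1c, the pore of an L-type calcium channel, had control levels from -3.11 to -2.81 and stress levels from -3.28 to -3.13. This probe of Cacna1c did not overlap between groups, and the difference was -0.24 ± 0.05 (adjusted p = 0.349). A second tested probe of the gene differed by -0.04 ± 0.18, with 0.07 in stress rats 1 to 4. Htr2c, a serotonin receptor that limits feeding, differed by -0.14 ± 0.04, and a further probe of Htr2c had the opposite sign.

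Other genes with a small p on the higher side had small shifts. One is on the list of synaptic vesicle and release genes, where 13 of 39 had a mean above the controls and the median was -0.025. That gene, Rab3b, a small GTPase of regulated secretion, had control levels from -0.51 to -0.41 and stress levels from -0.27 to -0.18. The SD was 0.036 in controls and 0.034 in stress rats, and the groups were clearly apart. The difference was 0.23 ± 0.03, a fold of 1.17, with an adjusted p of 0.114, and it was 0.21 in stress rats 1 to 4, 0.27 within day 1 and 0.20 within day 2. Msantd1 had control levels from -4.97 to -4.72 and stress levels from -4.56 to -4.34, a difference of 0.35 ± 0.05 (adjusted p = 0.13). Adpgk, an ADP-dependent glucokinase, differed by 0.35 ± 0.06, with 0.28 in stress rats 1 to 4 and 0.47 in rats 5 and 6. Jakmip3 differed by 0.23 ± 0.04. None of these 4 overlapped between groups, as was so upwards for 71 of all 12948 named genes. All 4 passed with scan day as a block, at limma adjusted p from 0.0264 to 0.0356. They were chosen for a small p in these same arrays, so neither result is separate support. With stress rats 1 to 4 and the same block, 9 probes passed, all of them lower, so none of these 4 did. Within day 2 their limma adjusted p ran from 0.283 to 0.351.

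On the lower side the smallest p among named genes belonged to B3gnt2, a glycosyltransferase that extends poly-N-acetyllactosamine chains. It had control levels from -4.88 to -4.66 and stress levels from -5.20 to -4.97. The difference was -0.34 ± 0.06 (adjusted p = 0.177), and -0.38 in stress rats 1 to 4. B3gntl1, a related glycosyltransferase by name, had control levels from -4.54 to -4.24 and stress levels from -5.48 to -4.79. Stress rats 5 and 6 were the 2 lowest, and the difference of -0.64 ± 0.12 became -0.47 without them.

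Maip1, a mitochondrial matrix protein, differed by -0.18 ± 0.04, with an SD of 0.034 in controls and 0.048 in stress rats. Rab2a, a GTPase of transport between the endoplasmic reticulum and the Golgi, differed by -0.21 ± 0.04, and Pspn, the neurotrophic factor persephin, by -0.22 ± 0.04. In these 3 genes no stress rat reached the control range, and the values in stress rats 1 to 4 were -0.18, -0.19 and -0.22. Downwards, 54 of all 12948 named genes had groups that did not overlap. The 3 were chosen for a small p in these same arrays, so their lack of overlap is no separate support. Mbip had control levels from -6.08 to -5.68 and stress levels from -6.88 to -6.11, a difference of -0.61 ± 0.12. Its size moved with the processing, from -0.64 to -0.18 over 14 alternatives. Btla, an inhibitory receptor of lymphocytes, differed by -0.65 ± 0.13 and overlapped between groups, and its other tested probe had the opposite sign. Car9, a carbonic anhydrase of the cell surface, differed by -0.53 ± 0.16, and by -0.34 in stress rats 1 to 4.

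**Figure D4:**
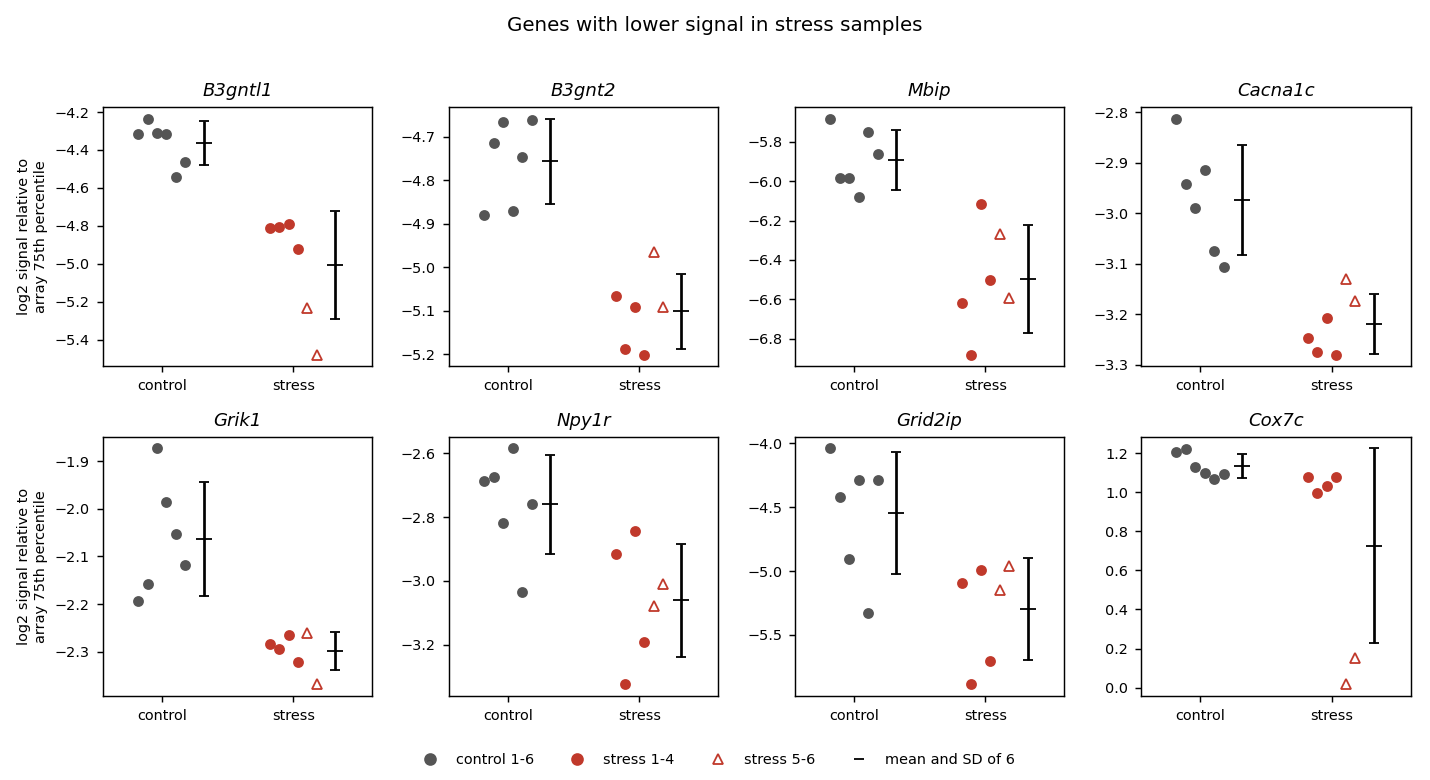
Level of 8 genes with a lower mean in stress rats, in each rat, as log2 signal relative to the array's 75th percentile, with symbols as in the plot of cholinergic genes. In Cox7c stress rats 5 and 6 lie far below the rest, while in Cacna1c and Grik1 all 6 stress rats are below all controls.

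Some differences rested on stress rats 5 and 6. Cox7c, a subunit of cytochrome c oxidase, differed by -0.41 ± 0.19 with 6 stress rats, but by -0.09 in rats 1 to 4 and -1.05 in rats 5 and 6. Hmgb1-ps2, a pseudogene of a chromatin protein whose probe may also read the parent gene, differed by -0.59 ± 0.26, by -0.16 in rats 1 to 4 and by -1.46 in rats 5 and 6. Cga, the shared subunit of pituitary glycoprotein hormones, ran from -7.92 to 2.51 in controls and from -8.74 to 3.26 in stress rats. Stress rats 5 and 6 and control rats 3 and 4 were low in Cga, and control rat 4 and stress rats 5 and 6 were not well above background. Cd74, the invariant chain of class II histocompatibility molecules, averaged 0.57 above the controls in rats 1 to 4 and -1.10 in rats 5 and 6. With all 6 stress rats Cd74 differed by 0.01 ± 0.42. Control rats 3 and 4 were low as well, at -4.19 and -4.55, beside -4.85 and -4.39 in stress rats 5 and 6. The part of pituitary, meningeal or vascular tissue in these values was not tested.

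Immune genes showed no common shift. Among 30 interferon and antigen presentation genes 3 had an unadjusted p under 0.05, all higher, and the median was 0.05. They were Bst2, an antiviral membrane protein (0.28 ± 0.08), the GTPase Gbp2 (0.21 ± 0.08) and the ubiquitin-like Isg15 (0.48 ± 0.22). Isg15 varied widely, from -2.70 to -1.24 in stress rats, and its lowest value lay below all controls. Of 31 cytokine, chemokine and NF-kB genes 1 was higher and 3 lower at that p, with a median of -0.03. Over all named genes 4.80% were higher and 4.44% lower. The 14 microglial markers had a median of -0.03, the 12 astrocyte markers -0.01 and the 12 markers of mature oligodendrocytes 0.05.

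Housekeeping pathways were level. The 80 oxidative phosphorylation genes had a median of -0.0072, the 92 cytosolic ribosomal protein genes 0.01 and the 23 cholesterol synthesis genes -0.00080. At an unadjusted p under 0.05 these lists had 1, 1 and 0 genes, the first 2 on the lower side, where 4.44% of all named genes lay. Trophic factors had a median of -0.01, with Fgf17 at -0.54 ± 0.13 and Fgf21 at -0.44 ± 0.15 as its 2 lower members. Both are faint, and in stress rats Fgf17 was well above background on 4 of 6 arrays and Fgf21 on 3. On control arrays both were so on all 6. They thus entered the test through the controls alone, which favours a lower value in stress.

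**Figure D5:**
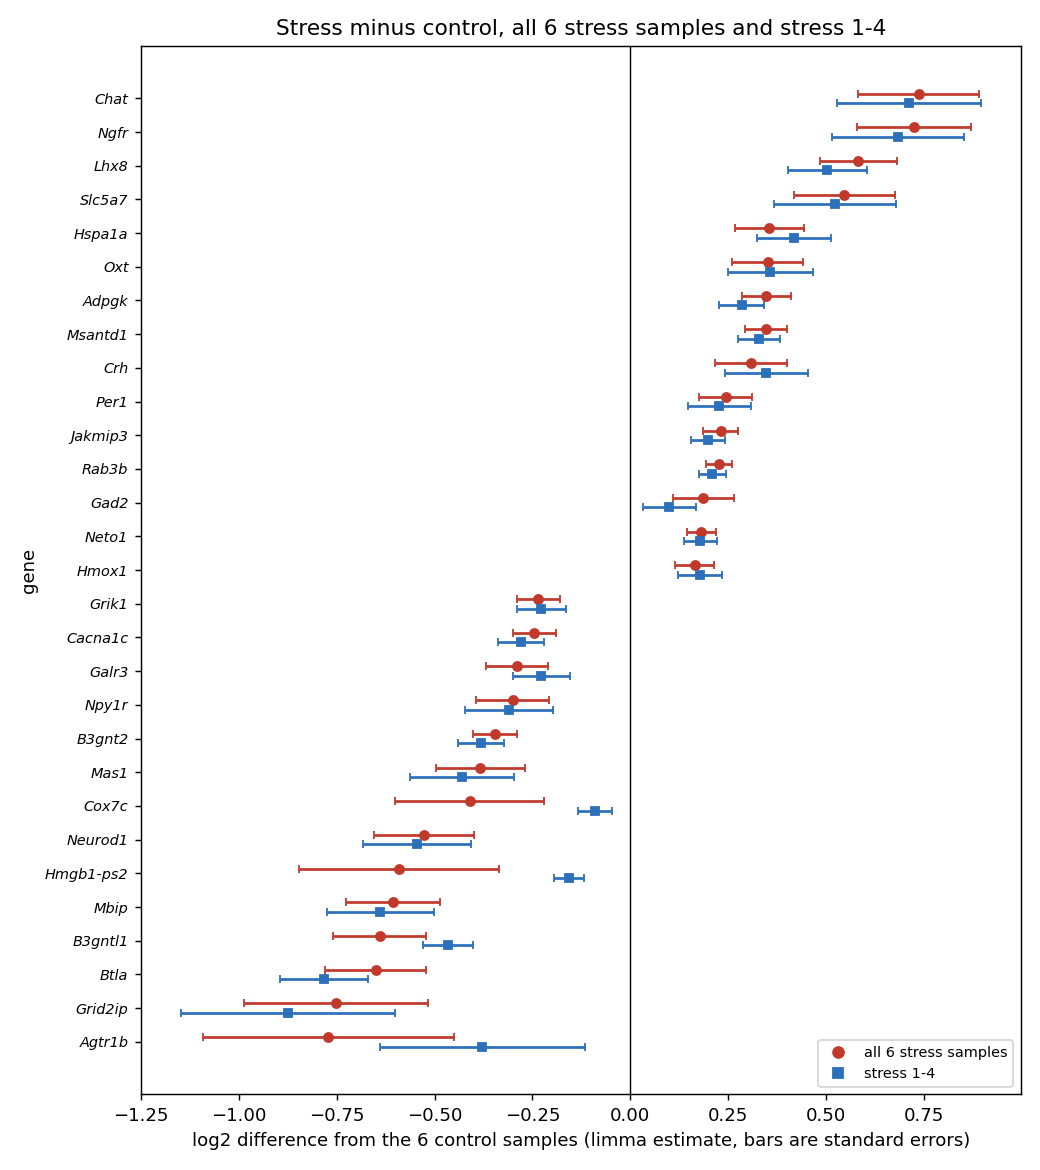
Difference from the 6 controls in log2 units with its standard error, for all 6 stress rats (red circles) and for stress rats 1 to 4 (blue squares), in 29 genes of the text. The paired estimates lie close together for Lhx8, Chat and Oxt, and apart for Cox7c, Hmgb1-ps2 and Agtr1b. Both estimates use the same controls and stress rats 1 to 4, so closeness is partly built in.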

How the data were processed

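Hypothalamic RNA of 18 rats was labelled with Cy3 and read on 1-colour Agilent arrays. Each deposited file holds 1 array's scanner intensity values from Agilent Feature Extraction 12.1.0.3, per the file headers, while the submitters' processing notes name version 9.1. The column used holds the processed intensity that this software wrote to the deposited files. Here log2 of that intensity minus the array's 75th percentile over non-control spots was used, spots flagged as outliers were left out, and spots of a probe were averaged. Probes were named by transcript accession through a RefSeq table (GRCr8), which named 21220 of 45598 probes and left 24378 unnamed. 2 probes were not fitted because outlier flags left too few values.

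Stress minus control was fitted in limma 3.58.1 (R 4.3.3) on the 12 arrays, and p-values were adjusted by Benjamini-Hochberg over all tested probes. The self-test on simulated data used the same script. Alternatives changed background correction, scaling, the filter, outlier spots, the rats included, slide, scan day, slide set and replicate number. The planned normexp correction was run on median spot signals in place of mean spot signals. Named genes followed a rule: 10 stress and feeding genes, the smallest p-values and largest non-overlapping differences in each direction, and 2 genes per list. Some genes under this rule are not reported here. Genes and lists were chosen with earlier results of these data known. The 6 arrays a group limit the precision. The labels give 100 and 200 ng as the RNA input in different places.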

Additional observations from a re-analysis of the deposited data

Results flagged for a closer look

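In 16 of the 216 groups of 6 rats examined (73 genes and 35 list means, controls and stress rats apart) 1 rat lay far from the other 5, and chance sets apart about 1 group in 20. Among the peptides, stress rat 3 was low in Avp at 4.55, and control rat 1 was low in Oxt at 2.90. In Fos and Nr4a1 stress rat 5 was lowest, at -5.79 and -2.43. Among forebrain genes, control rat 6 was highest in Chat at -2.02, stress rat 2 was lowest in Slc5a7 at -3.49, and stress rat 3 was lowest in Rgs9 at -1.37. Among receptors and peptides of the hypothalamus, stress rat 6 was low in Galr3 at -5.26, stress rat 1 in Npy2r at -0.026, control rat 3 in Qrfp at -6.33 and stress rat 2 in Mas1 at -6.77. Control rat 5 was highest in Isg15 at -2.12. Among list means, control rat 1 was lowest in cholesterol synthesis at -0.51 and highest in cortex and hippocampus at -4.09, control rat 2 was highest in endothelium at -2.02, and control rat 5 was highest in erythrocytes at 1.19.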

How the results depend on the processing

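The count of 0 probes past the threshold held for 6 stress rats under every background correction, scaling and filter tried. It became 375 with scan day as a block, 3318 within scan day 1 and 1 with slide set as a covariate over all 18 arrays, and 0 to 3 when 1 rat was left out. For stress rats 1 to 4 it became 9 with scan day as a block and 2 with all 18 arrays fitted, and 0 to 1 when 1 rat was left out. Lhx8 was among the 3 probes without stress rat 2. Probes with all stress rats above all controls numbered 186 after quantile normalization, 34 without scaling and 128 to 210 when 1 rat was left out. Those with all below numbered 73, 64 and 192 to 255 under the same settings, and 74 after scaling to the median, and leaving a rat out raises such counts by construction, since fewer rats need to be apart. Of 2042 values for 73 genes under the alternatives, 13 had the other sign. Many of these genes were chosen for a small p in these same arrays, which favours a kept sign. With slide as a random block Fkbp5 was -0.011 and Sgk1 -0.0099, with scan day as a block -0.039 and -0.040, and within day 1 they were -0.13 and -0.10, with Agrp at -0.037. When 1 rat was left out, Fkbp5 ran from -0.0056 to 0.0725 and Sgk1 from -0.049 to 0.12. Sizes moved as well over the 14 alternatives that neither left out 1 rat nor kept 1 scan day. Mbip ran from -0.64 to -0.18, Mas1 from -0.43 to -0.10 and Pspn from -0.23 to -0.061. Btla ran from -0.78 to -0.21, B3gnt2 from -0.38 to -0.15 and Neurod1 from -0.55 to -0.19. On the higher side Msantd1 ran from 0.19 to 0.41, while Oxt stayed between 0.35 and 0.38. Replicate numbers did not pair the rats, since the correlations of same-numbered rats ran from -0.20 to 0.17, and with a replicate block 0 probes passed, where the lowest adjusted p was 0.421 and 2710 probes passed before adjustment. The percentile over probes or tested probes and the within-day fits were chosen after seeing the data. The cause of these differences was not tested.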
